A study of Mus musculus with 6 samples.

Results

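The genes described here encode lipases and proteins that act beside them on plasma lipoproteins: hepatic lipase (Lipc), endothelial lipase (Lipg), lipoprotein lipase (Lpl), lysosomal acid lipase (Lipa), the lipoprotein lipase inhibitor Angptl4, phospholipid transfer protein (Pltp) and lecithin-cholesterol acyltransferase (Lcat). They were chosen by gene symbol, as all probe sets of the array annotated to these 7 genes alone. That gave 13 of the 45101 probe sets on the array, covering 6 of the 7 genes, out of 18193 genes named on it. No probe set carried Lipc as its symbol in the annotation used, so hepatic lipase was not analysed here. The data are signals from 3 whole-liver samples of LIGHT Tg mice, which carry a LIGHT transgene, and 3 of wild-type (WT) B6 mice, all 4 to 8 weeks old and fed high-fat diet TD88137 for 2 weeks, with 1 Affymetrix array per sample. LIGHT, the product of Tnfsf14, is a ligand of the tumour necrosis factor family. No strain is given for the LIGHT Tg mice and neither is the promoter of the transgene, so background and transgene cannot be told apart. Genotypes follow the titles and source names, since the free-text descriptions name wild-type mice for the LIGHT Tg samples too. As the labels do not state that samples are separate animals, a p-value here reflects only how much these 6 samples vary.

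Lipases of this family break down triglycerides and phospholipids carried by lipoproteins. Lipoprotein lipase acts at the capillary wall on triglyceride-rich particles, hepatic lipase acts in the liver on remnants and high-density lipoprotein (HDL), and endothelial lipase is mainly a phospholipase of HDL. Lysosomal acid lipase instead hydrolyses cholesteryl esters and triglycerides inside the cell, after lipoproteins have been taken up. Lcat esterifies cholesterol on HDL, and Pltp moves phospholipid between particles.

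Samples are called here by genotype and title number: LIGHT Tg 77, 34 and 35, and WT 78, 30 and 31. The arrays titled 77 and 78 (the pair) stood apart from the 4 titled 30 to 35 (the others). The X-inactivation transcript Xist had signals of 406.6 in LIGHT Tg 77 and 444.0 in WT 78 at its brightest probe set, and of 7993 to 9714 on the other 4 arrays. The Y-linked gene Eif2s3y had 1272 in LIGHT Tg 77 and 1037 in WT 78 at probe set 1417210_at and 2.10 to 2.82 on the others, so the sets differ in sex-linked signals; the labels give no sex. The middle probe set of the 18S ribosomal RNA control had 166.1 in LIGHT Tg 77 and 147.4 in WT 78, and 17840 to 19520 on the others. With genotype in the limma fit, 6163 of 22519 probe sets (27.4%) differed between these sets at 5% false discovery rate (FDR). The pair holds 1 array of each genotype, so member differences are given with the set as a block and within each set, and those of other genes with and without the block. At the brighter of the probe sets for Tnfsf14 the signal was 55.7, 19.3 and 26.7 in LIGHT Tg 77, 34 and 35, against 7.70, 11.9 and 7.43 in WT 78, 30 and 31 (adjusted p = 0.423 in the unfiltered limma fit), at percentile 8.88 of levels. The other, 1450298_at, was dimmer, with 2.3, 3.11 and 5.6 in LIGHT Tg 77, 34 and 35, against 4.25, 3.75 and 7.83 in WT 78, 30 and 31. Total signal per array lay between 30980000 and 32710000, and the number of arrays limits the precision.

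Of the 6 genes with values, Lcat, Lipa and Pltp had an entry in the RefSeq promoter table (GRCm38.p6), and Lipg, Lpl and Angptl4 did not. The windows run from 250 bases before to 50 bases after the annotated start, and are shown so that the start regions of an HDL enzyme, a lysosomal lipase and a transfer protein can be read beside their values. Capitals mark matches, on either strand, to 5 short motifs: CACGTG (E-box), GGGCGG (Sp1 box), AGGTCA (nuclear receptor half-site), CCAAT and TATAAA. The Lcat window is chr8:105943353-105943652, the Lipa window chr19:34527425-34527724 and the Pltp window chr2:164857659-164857958, all on the minus strand.
Lcat: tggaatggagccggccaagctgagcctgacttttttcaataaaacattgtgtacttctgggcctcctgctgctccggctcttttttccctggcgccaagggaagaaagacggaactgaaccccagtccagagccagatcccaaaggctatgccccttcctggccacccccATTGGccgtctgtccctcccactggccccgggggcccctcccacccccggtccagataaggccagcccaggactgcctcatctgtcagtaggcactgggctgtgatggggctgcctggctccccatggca
Lipa: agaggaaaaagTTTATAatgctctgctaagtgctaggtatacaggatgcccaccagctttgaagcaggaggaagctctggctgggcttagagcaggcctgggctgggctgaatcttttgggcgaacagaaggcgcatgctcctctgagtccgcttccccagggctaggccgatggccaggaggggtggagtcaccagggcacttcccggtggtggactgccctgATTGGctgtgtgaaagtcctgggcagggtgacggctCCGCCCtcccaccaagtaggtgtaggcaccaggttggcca
Pltp: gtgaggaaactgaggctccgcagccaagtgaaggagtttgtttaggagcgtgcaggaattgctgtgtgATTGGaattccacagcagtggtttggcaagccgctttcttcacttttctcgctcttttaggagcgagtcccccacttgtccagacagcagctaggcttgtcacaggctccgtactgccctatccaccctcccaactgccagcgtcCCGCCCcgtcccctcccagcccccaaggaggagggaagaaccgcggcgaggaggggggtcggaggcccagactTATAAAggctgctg
CCAAT matched once in each window, reversed on the other strand as ATTGG, and is found in 37.4% of all 32851 promoters in the table. GGGCGG matched in the Lipa and Pltp windows and in 35.7% of all promoters, and TATAAA matched in the same windows and in 13.6%. Neither the E-box (7.15% of promoters) nor the half-site (16.3%) had a match in these 3 windows.

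Over the 6 arrays, Lipg, Lipa and Lcat were the genes whose LIGHT Tg and WT signals stood furthest apart relative to their spread. The log2 difference was negative at the 2 tested probe sets of Lipg and at 2 of 3 of Lipa, and positive at that of Lcat. Lpl, Angptl4 and Pltp overlapped between the genotypes at each tested probe set. A probe set was tested where its mean log2 signal reached the median of all, a signal of 167.4, and 11 of the 13 did. None of the 11 passed 5% FDR in the limma fit without the block, in which 1.17% of all probe sets passed. An unadjusted p below 0.05 was found at 4 of the 11, and at 2473 of all 22519 tested. With the set as a block 3 of the 11 passed, all lower in LIGHT Tg, and 6.47% of all probe sets passed (3.21% lower). These calls, at Lipg 1450188_s_at, Lipa 1450872_s_at and Lipa 1423141_at, were each lost when WT 30, WT 31, LIGHT Tg 34 or LIGHT Tg 35 was left out and the block kept, with adjusted p between 0.0669 and 0.193. Of the 3, Lipg 1450188_s_at reached the filter through its WT signals alone, so its p-values are given as a description and add no support. The groups did not overlap at 3 of the 11 probe sets, against 17.4% of all tested. Between the title-number sets 5 of the 11 differed at 5% FDR, against 27.4% of all tested. Of the 11, 6 had negative and 5 positive log2 differences, with a median of -0.02, against -0.01 over all probe sets tested.

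**Figure D1:**
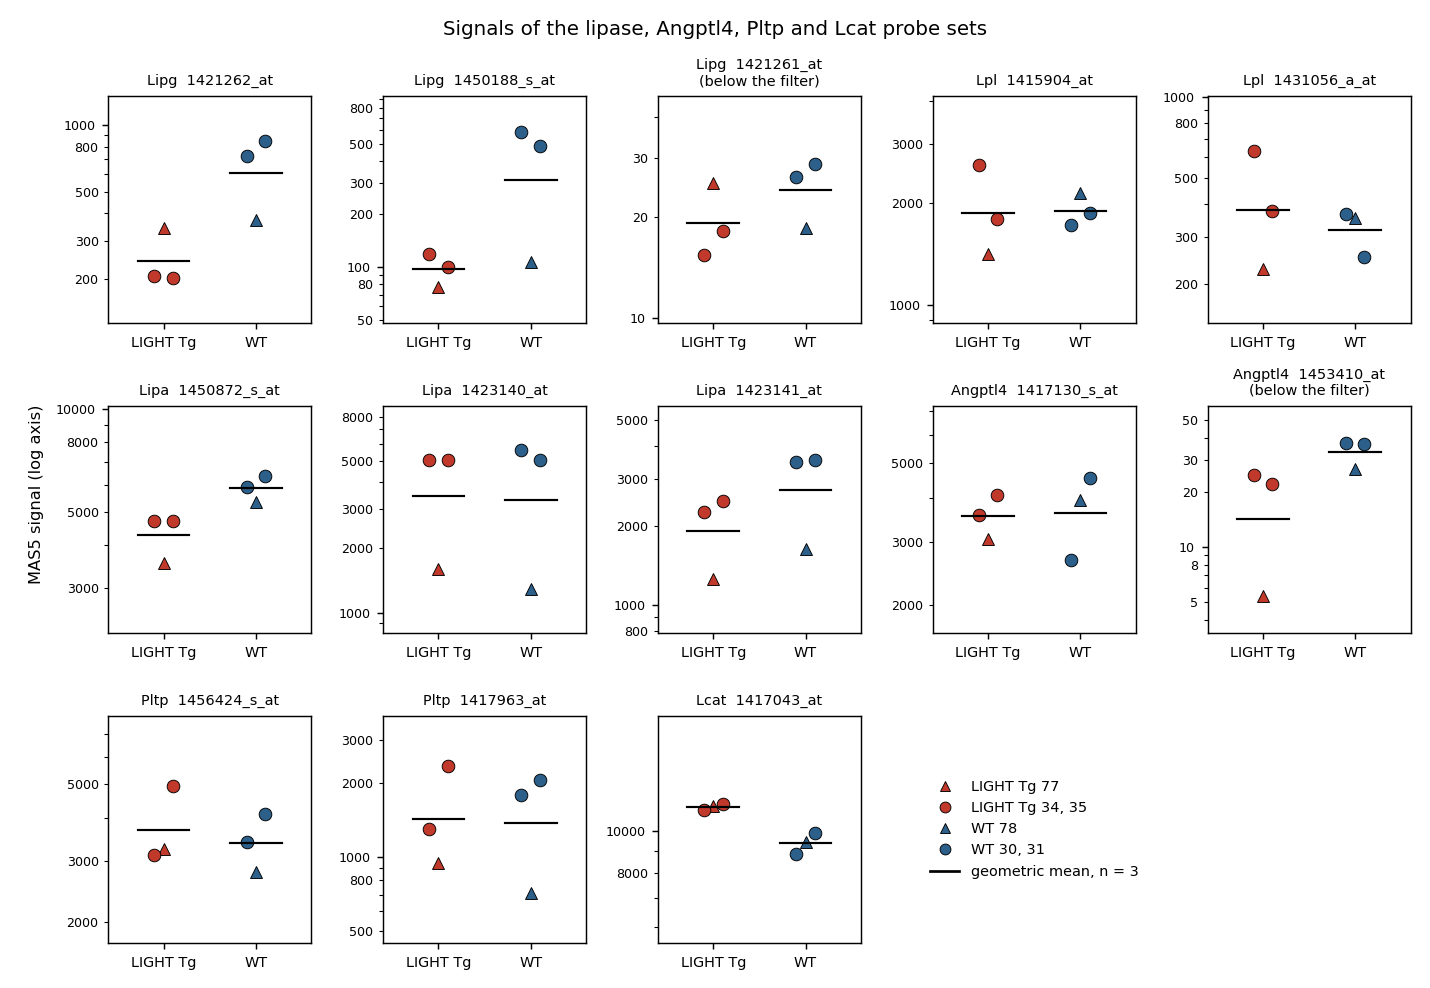
MAS5 signal on a log axis in each array for the 13 probe sets, LIGHT Tg left (red) and WT right (blue); triangles are the arrays titled 77 and 78, circles those titled 30 to 35, and lines the geometric mean (n = 3). At Lipg 1421262_at the LIGHT Tg signals lie between 202.7 and 342.3, all below the WT signals of 370.9 to 847.9, and at Lcat all 3 LIGHT Tg signals lie above all 3 WT signals.

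Lipg encodes endothelial lipase, which is secreted by endothelial cells and hepatocytes and acts on HDL phospholipid. At its brightest probe set, 1421262_at, the signal was 342.3, 207.5 and 202.7 in LIGHT Tg 77, 34 and 35, against 370.9, 722.9 and 847.9 in WT 78, 30 and 31. All LIGHT Tg values lay below all WT values, with the narrowest gap between the arrays of the pair. The log2 difference was -1.33 ± 0.368 (moderated SE, n = 3 per group), with an adjusted p of 0.198 in limma and of 0.0740 with the block. Among the others alone the difference was -1.93 ± 0.165, a signal 3.82-fold higher in WT (limma adjusted p = 0.00412, n = 2 per group; 4.25% of all probe sets passed in these arrays). In the pair, with 1 array per genotype, it was -0.12.

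The second tested probe set of Lipg, 1450188_s_at, was higher in 2 of the 3 WT samples than in the rest. Its signal was 77.2, 118.4 and 100.6 in LIGHT Tg 77, 34 and 35, against 107.3, 581.5 and 482.7 in WT 78, 30 and 31. The groups overlapped because WT 78 was as low as the LIGHT Tg arrays. The signal was also 2.64-fold higher in the others than in the pair (limma adjusted p = 0.0411 for the set). The log2 difference was -1.68 ± 0.634 (adjusted p = 0.376 in limma), and with the block -1.68 ± 0.383, which passed (adjusted p = 0.0481). Within the others it was -2.28 ± 0.215 (adjusted p = 0.00591), and in the pair -0.48. This probe set reached the filter only through its WT signals, so a difference was built into its being tested: the mean log2 signal was 6.60 ± 0.312 in LIGHT Tg and 8.28 ± 1.34 in WT (SD, n = 3 each), against a filter level of 7.387.

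Whether the Lipg difference itself differs between the title-number sets was tested with an interaction term, after the small difference in the pair was known. As the pair holds 1 array per genotype, the SE and p of this term rest on the spread among the other 4 arrays. The pair had a log2 difference 1.82 ± 0.289 above that of the others at 1421262_at, with an unadjusted limma p of 0.000771 and an adjusted p of 0.113. At 1450188_s_at the value was 1.80 ± 0.437 (adjusted p = 0.253). None of the 11 tested probe sets passed for this term, against 0.0666% of all probe sets. An unadjusted p below 0.05 was found at 3 of the 11, and at 2474 of all 22519 tested. WT 78 was lower than the other WT arrays at both probe sets. LIGHT Tg 77 was the highest LIGHT Tg array at 1421262_at and the lowest of all 6 at 1450188_s_at. The remaining probe set, 1421261_at, lay at percentile 12.0 of levels and was not tested with the filter. Its signal was 25.3, 15.4 and 18.2 in LIGHT Tg 77, 34 and 35, against 18.6, 26.4 and 28.8 in WT 78, 30 and 31. With the block its log2 difference was -0.33 ± 0.477 (adjusted p = 0.791 in the unfiltered limma fit). It was 0.45 in the pair and -0.72 ± 0.496 in the others, so the sign was not the same in both sets.

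Lipg is made in part by endothelial cells, so their markers are given beside it. Of 8 such markers tested, 2 rose in limma and 6 did not pass, and 3 rose with the block. Over all 11563 genes tested, 1.36% passed without the block and 7.15% with it, shares that apply to each list below. An unadjusted p below 0.05 was found for 1375 of these genes without the block and 2747 with it. Vwf, the gene of von Willebrand factor, rose by 2.39 ± 0.229 on the log2 scale (adjusted p = 0.00678). Its WT mean of 7.35 lay below the filter level, so it was tested through its LIGHT Tg signals. Its passes, which are in both counts of markers that rose, therefore add no support. The sinusoidal receptor Lyve1 rose by 1.24 ± 0.200 (adjusted p = 0.0393), and the scavenger receptor Stab2 had 0.75 ± 0.176, which passed with the block (adjusted p = 0.0127). Clec4g, the marker with the highest level, had 0.36 ± 0.175 (adjusted p = 0.529), and Kdr, named after its value was seen, was the marker with a negative difference, at -0.09 (adjusted p = 0.967). The summed signal of the 8 ranged from 12720 to 16030 in LIGHT Tg and from 9215 to 10480 in WT; its part in the Lipg result was not tested. In whole liver, a change in the number of cells of a type and a change in RNA per cell cannot be told apart.

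Lipa encodes the acid lipase of lysosomes, and its 3 probe sets disagreed. At 1450872_s_at the signal was 3548, 4704 and 4704 in LIGHT Tg 77, 34 and 35, against 5352, 5925 and 6395 in WT 78, 30 and 31. All LIGHT Tg values lay below all WT values, and the difference had the same sign in both sets, with a log2 value of -0.59 in the pair and of -0.39 ± 0.0974 in the others. Over 6 arrays it was -0.46 ± 0.156, a signal 1.37-fold higher in WT (adjusted p = 0.318 in limma). With the block it was -0.46 ± 0.0885 and passed (adjusted p = 0.0281).

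At Lipa 1423141_at the signal was 1258, 2256 and 2471 in LIGHT Tg 77, 34 and 35, against 1637, 3481 and 3543 in WT 78, 30 and 31. The groups overlapped across sets, but within each set every LIGHT Tg array was lower than every WT array. The log2 difference was -0.51 ± 0.375 without the block (limma adjusted p = 0.749) and -0.51 ± 0.104 with it (adjusted p = 0.0338), and it was -0.38 in the pair and -0.57 ± 0.116 in the others. With 1 array left out and no block, the difference lay between -0.88 (without WT 78) and -0.21 (without LIGHT Tg 77).

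The remaining probe set, Lipa 1423140_at, followed the title-number set and not the genotype. Its signal was 1592, 5085 and 5047 in LIGHT Tg 77, 34 and 35, against 1293, 5619 and 5041 in WT 78, 30 and 31. Both arrays of the pair were low and the 4 others high, a level 3.62-fold higher in the others (adjusted p = 0.000500 for the set). Its genotype difference with the block was 0.05 ± 0.113, with a 95% confidence interval of -0.21 to 0.32 that does not include the differences found at the other probe sets of the gene. The set difference was smaller at 1423141_at, 2.01-fold (adjusted p = 0.00213), and smallest at 1450872_s_at, 1.24-fold (adjusted p = 0.0499). A lower Lipa signal in LIGHT Tg was thus seen at 2 of 3 probe sets. Neither passed in the limma fit without the block. Both calls with the block were lost when any array titled 30 to 35 was left out. Which part of the transcript each probe set reads was not analysed here.

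**Figure D2:**
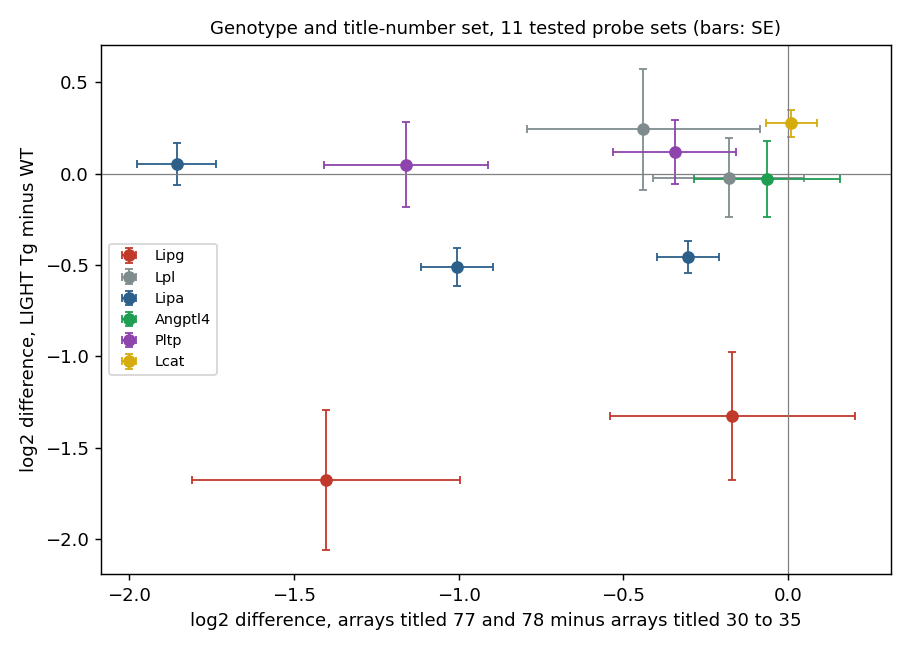
Log2 difference between LIGHT Tg and WT (vertical) against the log2 difference between the pair and the others (horizontal) for the 11 tested probe sets, from the fit with both terms; bars are SE. The 3 Lipa probe sets spread along the horizontal axis between -1.86 and -0.30, Lcat sits at 0.01 on it with a genotype difference of 0.28, and both Lipg probe sets lie lowest.

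Lysosomal genes were set beside Lipa. Of 18 tested in limma, none passed without the block, where 3 had an unadjusted p below 0.05, and with the block 1 fell, with a median of 0.00 over the list and -0.01 over all genes tested. The gene that fell with the block was Scarb2, a lysosomal membrane protein, at -0.39 ± 0.0868 (adjusted p = 0.0431). Over all 11563 genes, 1.36% passed without and 7.15% with the block. Markers of macrophages, which also use Lipa, had no member past 5% FDR among 10 in either limma fit (0 and, with the block, 1 at an unadjusted p below 0.05). Their summed signal ranged from 24420 to 40230 in LIGHT Tg and from 34490 to 39720 in WT, and Csf1r, the marker with the highest level, had -0.08 (adjusted p = 0.954).

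Lpl, the lipase of capillary walls that adult hepatocytes hardly make, showed no common direction. At 1415904_at the signal was 1410, 2594 and 1796 in LIGHT Tg 77, 34 and 35, against 2136, 1725 and 1863 in WT 78, 30 and 31. LIGHT Tg held both the highest and the lowest of the 6 values. The log2 difference with the block was -0.02 ± 0.215, with a 95% confidence interval of -0.53 to 0.49, a fold of LIGHT Tg over WT from 0.694 to 1.40 (adjusted p = 0.969). In the pair it was -0.60 and in the others 0.27 ± 0.195, and the interaction did not pass (adjusted p = 0.433). At 1431056_a_at the signal was 229.2, 633.1 and 375.9 in LIGHT Tg 77, 34 and 35, against 353.5, 367.2 and 254.0 in WT 78, 30 and 31. There the difference with the block was 0.24 ± 0.333 (adjusted p = 0.721). It was -0.63 in the pair and 0.68 ± 0.305 in the others, opposite in sign as at the first probe set, and the interaction did not pass either (adjusted p = 0.460).

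Angptl4, an inhibitor of lipoprotein lipase made by liver and fat, did not differ detectably at its bright probe set. At 1417130_s_at the signal was 3072, 3568 and 4084 in LIGHT Tg 77, 34 and 35, against 3947, 2667 and 4530 in WT 78, 30 and 31. WT held both the highest and the lowest value. The log2 difference with the block was -0.03 ± 0.209 (95% confidence interval -0.52 to 0.46, adjusted p = 0.952). Within the others alone it was 0.14 ± 0.249, and the pair differed by -0.36. The other probe set, 1453410_at, lay at percentile 12.3 of levels and below the filter, with 5.40, 24.8 and 22.1 in LIGHT Tg 77, 34 and 35, against 27.0, 37.3 and 37.1 in WT 78, 30 and 31. All LIGHT Tg values there were below all WT values, and the difference of -1.22 ± 0.703 did not pass (adjusted p = 0.802 in the unfiltered fit, and 0.321 with the set as a block). Within the others alone it was -0.67 ± 0.471, and the pair differed by -2.32.

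Pltp, which transfers phospholipid from triglyceride-rich particles to HDL, passed for the set at 1 of 2 probe sets and for genotype at neither. At 1456424_s_at the signal was 3266, 3124 and 4934 in LIGHT Tg 77, 34 and 35, against 2794, 3423 and 4103 in WT 78, 30 and 31. At 1417963_at it was 941.8, 1303 and 2354 in LIGHT Tg 77, 34 and 35, against 712.3, 1782 and 2052 in WT 78, 30 and 31. LIGHT Tg 35 was the highest array at both probe sets, and WT 78 the lowest. The genotype difference with the block was 0.12 ± 0.177 (95% confidence interval -0.30 to 0.54, adjusted p = 0.741) at the first and 0.05 ± 0.235 (-0.50 to 0.60, adjusted p = 0.928) at the second. In the pair these differences were 0.23 and 0.40, and in the others 0.07 ± 0.227 and -0.13 ± 0.279. The second probe set was 2.23-fold higher in the others than in the pair (adjusted p = 0.0163 for the set), and the first had 1.27-fold (adjusted p = 0.205). The part of the 18S and Xist differences in these set differences, and in those of Lipa, was not tested.

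Lcat, the liver-made enzyme that esterifies cholesterol on HDL, had a small difference of nearly the same size in both sets. The signal was 11380, 11140 and 11500 in LIGHT Tg 77, 34 and 35, against 9423, 8848 and 9873 in WT 78, 30 and 31. Each LIGHT Tg array was brighter than each WT array, and the LIGHT Tg values were close together. The log2 difference was 0.28 ± 0.0964, a signal 1.21-fold higher in LIGHT Tg (95% confidence interval of the log2 difference 0.05 to 0.50), with an adjusted p of 0.334 in limma and of 0.0732 with the block. It was 0.27 in the pair and 0.28 ± 0.0890 in the others. The set difference was 0.01 ± 0.0766, the smallest of the 11 tested probe sets. In an exact two-sided permutation test of 3 against 3 arrays, Lcat, Lipa 1450872_s_at, Lipg 1421262_at and, below the filter, Angptl4 1453410_at had p = 0.1. This is the smallest p the design allows, reached wherever the groups do not overlap, as at 17.4% of all tested probe sets. The test therefore adds nothing to the lack of overlap already given.

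**Figure D3:**
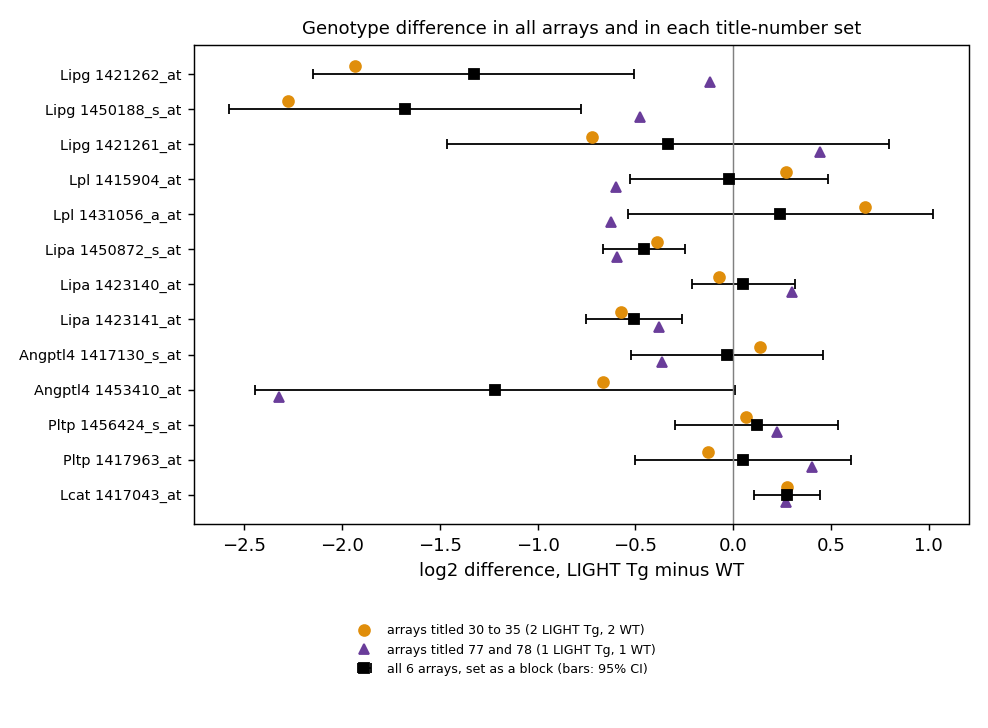
Log2 difference, LIGHT Tg minus WT, for the 13 probe sets: squares for all 6 arrays with the set as a block (bars, 95% confidence interval), circles for the arrays titled 30 to 35 and triangles for the pair. At the tested Lipg probe sets the circles lie at -1.93 and -2.28 and the triangles at -0.12 and -0.48, while at Lcat all 3 marks lie between 0.27 and 0.28.

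Proteins that switch these lipases on or off, fold them or cut them were given as a list of 21, of which 18 had a tested probe set. Without the block 1 of 18 rose and 17 did not pass, and with it 3 rose and 1 fell (median -0.00, against -0.01 over all genes). Over all genes tested, 1.36% passed without the block and 7.15% with it. Sdc1, a heparan sulfate proteoglycan that binds remnants and lipases at the hepatocyte surface, rose by 0.94 ± 0.143 (adjusted p = 0.0335, and 0.00369 with the block), with each LIGHT Tg array above each WT array. Apoc2, the activator of lipoprotein lipase, had 0.61 ± 0.197 (adjusted p = 0.280, and 0.0269 with the block), and Apoa4, an apolipoprotein of triglyceride-rich particles and HDL, had 0.50 ± 0.258 (0.566, and 0.0346 with the block). Pcsk6, a proprotein convertase that can cleave endothelial lipase, had -1.04 ± 0.347 (0.304, and 0.0120 with the block). Values near 0 were found for 3 genes named after their values were seen: Gpihbp1, which anchors lipoprotein lipase on capillaries, at 0.02 ± 0.141, the lipase folding factor Lmf1 at -0.04 ± 0.171, and the angiopoietin-like gene Angptl6 at -0.00 ± 0.172. Angptl8, a partner of other angiopoietin-like inhibitors and also named after its value was seen, had 0.45 ± 0.594 (adjusted p = 0.902).

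Among other lipases, 8 of 21 listed were tested, and none passed in limma without the block (3 had an unadjusted p below 0.05). With it 1 rose and 2 fell. The median was -0.29, and -0.06 with no filter. Pnpla3, a lipid droplet protein with lipase and acyltransferase activity, had 1.81 ± 0.393 (adjusted p = 0.0999, and 0.0158 with the block). Ces1d, a triglyceride hydrolase of the endoplasmic reticulum, had -0.90 ± 0.297 (0.294, and 0.00339 with the block), and the monoglyceride lipase Mgll had -0.68 ± 0.232 (0.316, and 0.0132 with the block). At each of these 3 genes the LIGHT Tg and WT values did not overlap, as at 17.4% of all tested probe sets.

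Receptors, apolipoproteins and transporters that handle HDL and remnants had no gene past 5% FDR among 15 tested, in limma with or without the block (median 0.03; 2 had an unadjusted p below 0.05 without and 4 with it). The largest statistics were those of the fatty acid and lipoprotein receptor Cd36, at 1.22 ± 0.440 (adjusted p = 0.349), and of the HDL apolipoprotein Apom, at 0.33 ± 0.127 (adjusted p = 0.393). Transcription factors listed as possible regulators of these genes had 1 of 19 that fell and 18 that did not pass, and 2 that fell with the block (median -0.16). Of all genes tested, 1.36% passed without the block and 7.15% with it. The bile acid receptor Nr1h4, which regulates Pltp, fell by 1.28 ± 0.206 (adjusted p = 0.0393), and the carbohydrate-responsive factor Mlxipl had -0.71 ± 0.168 (adjusted p = 0.131, and 0.00973 with the block).

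Targets shared with Pltp and Lpl through the liver X receptor, 10 in all, had none past 5% FDR in either limma fit (median -0.14; 0 had an unadjusted p below 0.05 without and 1 with the block). The 2 largest statistics were those of Srebf1, at -0.81 ± 0.368 (adjusted p = 0.496), and the phospholipid-remodelling enzyme Lpcat3, at -0.29 ± 0.139 (adjusted p = 0.534). Of 8 tested targets of peroxisome proliferator-activated receptors, which also drive Angptl4, none passed in limma without the block, where 3 had an unadjusted p below 0.05. With the block 1 rose and 2 fell (median 0.04), beside 7.15% of all genes past 5% FDR with it and 1.36% without. The fatty acid hydroxylase Cyp4a14 had -4.23 ± 0.944 (adjusted p = 0.110, and 0.0120 with the block), the hormone Fgf21 had 1.34 ± 0.436 (0.285, and 0.0408; its WT mean of 7.11 lay below the filter level, so it was tested through its LIGHT Tg signals), and the oxidation enzyme Acadm had -0.65 ± 0.224 (0.319, and 0.0206). The bright probe set of Angptl4 itself had -0.03.

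**Figure D4:**
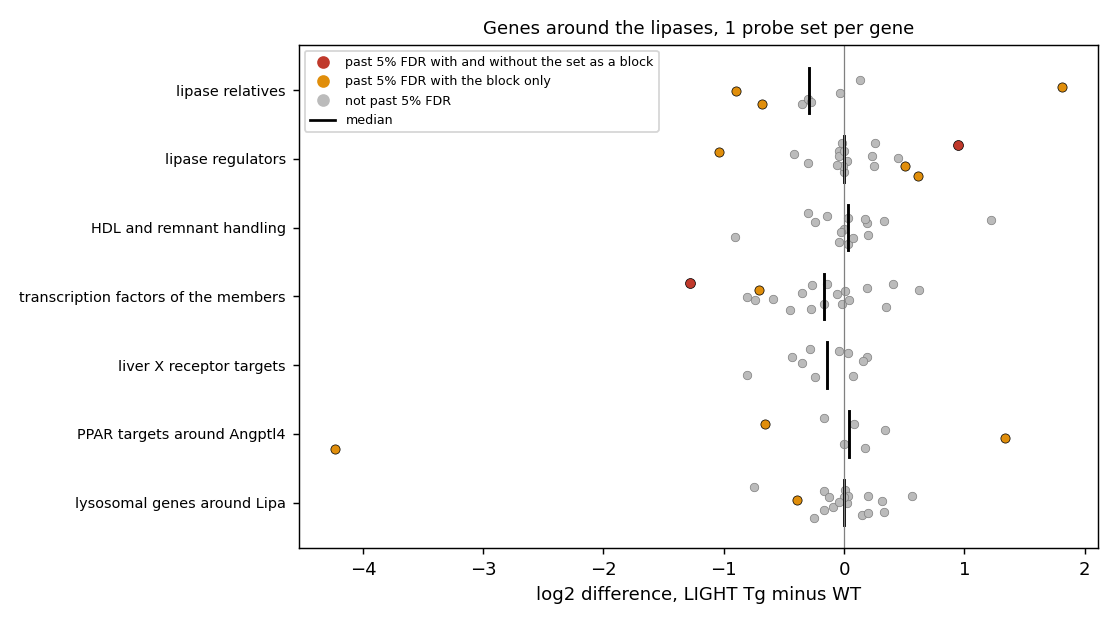
Log2 difference, LIGHT Tg minus WT, of each tested gene in the 7 lists around the lipases, with 1 probe set per gene; black lines are list medians, red points passed 5% FDR with and without the set as a block, orange points with the block only, and grey points did not pass. The list medians lie between -0.29 and 0.04, and the red points are Sdc1 at 0.94 and Nr1h4 at -1.28.

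Other cell types that a liver sample could hold were checked by their markers. Hepatocyte markers were high and none of 8 passed in either limma fit (0 at an unadjusted p below 0.05 in both), with Fabp1 at -0.04 (adjusted p = 0.968). Stellate cell markers likewise had none of 8 past 5% FDR (1 at an unadjusted p below 0.05 in each fit), with Dcn at -0.01 (adjusted p = 0.996). Of bile duct, fat, exocrine pancreas and muscle markers, 1, 1, 1 and 0 had a tested probe set, Epcam at -0.55 (adjusted p = 0.957), Retn at 0.32 (adjusted p = 0.921) and Cela2a at 0.51 (adjusted p = 0.703; its WT mean was below the filter level) among them. Of 7 lymphocyte markers listed, 2 had a tested probe set. Ighm, an immunoglobulin gene, rose by 3.62 ± 0.208 (adjusted p = 0.000821) and Cd8a had 0.12 (adjusted p = 0.908). The summed signal of both ranged from 4489 to 6492 in LIGHT Tg and from 836.8 to 930.1 in WT. The rise in this sum was that of Ighm, at 3872 to 5978 in LIGHT Tg and 330.4 to 413.8 in WT. Cd8a had 513.4 to 617.1 in LIGHT Tg and 500.2 to 531.3 in WT. The part of the Ighm rise in the differences of Lipg, Lipa and Lcat was not tested.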

How the data were processed

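RNA of 3 LIGHT Tg and 3 WT liver samples was measured on 1 Affymetrix array per sample. The deposited values are the authors' MAS5 intensities, 1 linear signal per probe set; the software is as per the submitters' processing notes, which give no version. No detection calls were used, and the scaling target is not given in the sources. Trimmed mean signals of 490.0 to 505.1 on all 6 arrays show that the authors scaled each array alike. Of 45101 probe sets, 64 controls were left out, and genes were named where the annotation table of the array gave 1 symbol (34945 of 45037). Log2 was taken after raising signals under 1 to 1. Probe sets at or above the median level (22519) were fitted with limma 3.58.1 under R 4.3.3 (lmFit, then eBayes with its trend option), two-sided, with Benjamini-Hochberg adjustment over all of them. Member probe sets below the filter were read from the same fit over all 45037. For lists, each gene was read at its brightest tested probe set. Fits were tested on simulated data, and plots made in Python 3.11.15 with matplotlib 3.10.9. The genes and lists were chosen with earlier results of these data known. Named genes are all members, list genes past 5% FDR in either fit (otherwise the 2 with the largest statistic), the marker of highest level in each list and those past 5% FDR, and the genes most alike in profile. Alternatives were other filters, an offset of 37.5 before log2, other normalizations, other variance moderation, array weights, the title-number block, the arrays titled 30 to 35 alone, each array left out, and the mean of all probe sets of a gene.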

Additional observations from a re-analysis of the deposited data

How the results depend on the processing

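The count of all probe sets past 5% FDR, 264, became 148 without the variance trend, 1992 with array weights, 1457 with the block and 956 in the arrays titled 30 to 35, and lay between 43 (without LIGHT Tg replicate 35) and 306 (without WT replicate 78) with 1 array left out, or 467, 598, 970 and 643 with the block kept and WT replicate 30, WT replicate 31, LIGHT Tg replicate 34 or LIGHT Tg replicate 35 left out. The count of member probe sets past it, 0, became 3 with array weights, 3 with the block, 2 in the arrays titled 30 to 35 and 0 to 1 with 1 array left out. Lipg 1450188_s_at, which was tested only through its WT signals, is in each count above 0. The absent filter, the offset, both normalizations and the other moderations left the count at 0. The stricter filter also gave 0, but only 8 member probe sets were tested with it, and no Lipg probe set was among them. With 1 array left out and the block kept it was 0, so the 3 calls with the block were lost whichever array titled 30 to 35 was left out.

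Lipg 1421262_at passed with array weights (-1.89) and in the arrays titled 30 to 35 (-1.93). Lipg 1450188_s_at passed with array weights (-2.17), with the block (-1.68), in the arrays titled 30 to 35 (-2.28) and without WT replicate 78 (-2.45). With 1 array left out it lay between -2.45 and -1.23. As it reached the filter through its WT signals alone, these passes add no support. Lipa 1450872_s_at passed with array weights (-0.43) and with the block (-0.46), and Lipa 1423141_at with the block (-0.51); with 1 array left out the last lay between -0.88 (without WT replicate 78) and -0.21 (without LIGHT Tg replicate 77). Lipg, Lipa 1450872_s_at, Lipa 1423141_at, Angptl4 1453410_at and Lcat kept their sign under all their alternatives.

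Signs turned where the difference was near 0. Lpl 1415904_at had 0.12 with array weights, 0.27 in the arrays titled 30 to 35 and -0.26 to 0.18 with 1 array left out (0.048 without LIGHT Tg replicate 35 with the block). Lpl 1431056_a_at had -0.13 to 0.61 with 1 left out, and with the block -0.034 without WT replicate 31 and -0.097 without LIGHT Tg replicate 34. Lipa 1423140_at had -0.053 with array weights, -0.071 in the arrays titled 30 to 35 and -0.63 to 0.61 with 1 left out. Angptl4 1417130_s_at had 0.14 in the arrays titled 30 to 35 and -0.25 to 0.13 with 1 left out, or 0.14 without WT replicate 31 with the block. Pltp 1456424_s_at had -0.089 to 0.26 with 1 left out and -0.054 without LIGHT Tg replicate 35 with the block. Pltp 1417963_at had -0.060 with array weights, -0.13 in the arrays titled 30 to 35, -0.43 to 0.35 with 1 left out and -0.14 without LIGHT Tg replicate 35 with the block. As the mean of all probe sets of the gene, Lpl had 0.11 (-0.02 at 1 probe set), Angptl4 -0.62 (-0.03), Lipa -0.30 (-0.46) and Pltp 0.08 (0.12); Lipg did not pass the filter that way, because of its dim probe set. The cause of these changes was not tested. No paired analysis was possible because the title numbers are shared by no samples of the 2 genotypes.

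Gene list counts past 5% FDR ranged over the alternatives from 0 to 5 for the transcription factors, 0 to 4 for lipase regulators and for other lipases, 0 to 3 for peroxisome proliferator-activated receptor targets, 0 to 2 for lysosomal genes and 0 to 1 for the HDL and liver X receptor lists. List medians ranged more widely: -0.34 to -0.06 for other lipases, -0.30 to -0.04 for transcription factors and -0.28 to -0.02 for liver X receptor targets, and they took both signs for peroxisome proliferator-activated receptor targets (-0.17 to 0.10), HDL genes (-0.045 to 0.076), lysosomal genes (-0.13 to 0.078) and lipase regulators (-0.0018 to 0.061). Low signals carry no detection call, so values at the 12th percentile of levels have an unknown share of background.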

Other observations

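Profiles most like those of Lipg, Lipa and Lcat were sought among 19206 tested probe sets of other genes, by the root mean square difference between log2 signals scaled to mean 0 and SD 1 over the 6 arrays. This is a description of 6 points that share title-number sets, with no test. LIGHT Tg and WT did not overlap at the 3 member probe sets used. Genes picked for likeness to them therefore tend to differ by genotype through that choice, and their differences add no support. Closest to Lipg 1421262_at were 0610012G03Rik (0.133 SD), the glutathione transferase Gstk1 (0.133 SD) and Bloc1s2 (0.146 SD). At Gstk1 the groups overlapped, with 5259 in LIGHT Tg 77 and 5214 in WT 78. Closest to Lipa 1450872_s_at were the peroxisome proliferation gene Pex11a (0.0714 SD), Tprkb (0.0717 SD) and Oaz2 (0.0798 SD). The log2 difference of Pex11a was -0.94 ± 0.267 (SE of 3 against 3 arrays).

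Closest to Lcat were the basement membrane collagen gene Col4a1 (0.0671 SD), Mfsd6 (0.110 SD) and coagulation factor X, F10 (0.131 SD). Col4a1 had a log2 difference of 1.23 ± 0.198 and F10 of 0.72 ± 0.106, both larger differences than that of Lcat on an alike profile. As these genes were picked by profile, their differences are given without p-values.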
